A study of Mus musculus with 5 samples.

Results

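The splicing events described here are those in which 2 splice junctions compete and the longer of them crosses at least 8000 nt of genome. They were taken from the authors' deposited table of alternative splicing after knockdown of PQBP1. This polyglutamine-binding protein of the nucleus interacts with the splicing machinery, and its gene is mutated in a form of X-linked intellectual disability. Of its 585 events, 408 have 2 junctions, and 107 of these reach 8000 nt. The 107 events hold 214 junctions in 86 genes on 20 chromosomes, and the other 301 events with 2 junctions serve as the comparison. The cells were cortical neurons of C57BL/6 mice, taken from embryos at E16.5, kept in culture and collected on day 5 in vitro. In 3 samples (mock knockdown) the neurons carried lentivirus with a non-targeting control shRNA, and in 2 samples (PQBP1 knockdown) lentivirus with an shRNA against PQBP1. Both groups therefore share the strain, the age and the exposure to virus. The labels give no separate culture for each replicate, so the p-values may measure technical spread alone.

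A splice junction marks the place where 2 exons were joined after the intron between them was removed. A cassette exon gives a short junction when it is included and a long one, from its upstream to its downstream neighbour, when it is skipped. Alternative first exons follow from different transcription starts and alternative last exons from different ends of the transcript, and both are read here through the junction that ties them to the body of the gene. Long introns are common in neuronal genes, in particular in those for adhesion molecules, synaptic scaffolds and cytoskeletal proteins. Very short coding exons, called microexons, are used mainly in neurons and often keep the reading frame.

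The shortest cassette exons of the set carry the finest changes in sequence, so 11 of them are printed first, with the exon in capitals and 15 nt of each neighbouring exon in lower case. All 12 exons of at most 33 nt are wholly coding and have a length that is a multiple of 3. The sequences come from GENCODE M21 transcripts on mm10.
Dync1i2 (chr2:71227827-71227844, plus strand): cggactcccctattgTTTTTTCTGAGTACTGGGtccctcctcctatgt
Nckap1 (chr2:80571213-80571230, minus strand): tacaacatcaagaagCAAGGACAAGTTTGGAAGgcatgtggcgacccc
Odz3 (chr8:48287133-48287153, minus strand): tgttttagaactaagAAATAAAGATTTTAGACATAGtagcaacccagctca
Nrxn2 (chr19:6463824-6463847, plus strand): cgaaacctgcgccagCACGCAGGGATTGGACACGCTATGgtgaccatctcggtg
Max (chr12:76961263-76961289, minus strand): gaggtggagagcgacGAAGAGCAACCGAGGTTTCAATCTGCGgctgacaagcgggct
Nrxn2 (chr19:6488784-6488810, plus strand): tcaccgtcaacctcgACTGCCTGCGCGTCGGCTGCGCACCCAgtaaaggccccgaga
Tpd52 (chr3:8943551-8943577, minus strand): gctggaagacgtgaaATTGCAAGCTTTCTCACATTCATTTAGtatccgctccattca
Ncam1 (chr9:49550540-49550569, minus strand): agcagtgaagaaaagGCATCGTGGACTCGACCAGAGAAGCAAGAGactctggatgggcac
Ptprk (chr10:28554770-28554799, plus strand): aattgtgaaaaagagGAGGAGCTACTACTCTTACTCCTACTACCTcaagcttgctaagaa
Cadm1 (chr9:47829377-47829409, plus strand): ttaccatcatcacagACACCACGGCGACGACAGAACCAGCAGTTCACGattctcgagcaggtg
Map2k4 (chr11:65775733-65775765, minus strand): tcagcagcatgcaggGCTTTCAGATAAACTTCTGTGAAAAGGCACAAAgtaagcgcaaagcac

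Inclusion was lower in the knockdown for 7 of these 12 exons (Dync1i2, Odz3, both exons of Nrxn2, Max, Ptprk and Cadm1) and higher for 5, among them Nckap1, Tpd52, Ncam1 and Map2k4. In a pair of further events the junctions end at coding splice sites a few bases apart, and the capitals below mark the stretch that the nearer junction keeps and the farther junction leaves out.
Nckap1 (chr2:80554785-80554790, minus strand): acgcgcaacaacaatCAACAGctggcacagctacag
Slc39a11 (chr11:113463951-113463971, minus strand): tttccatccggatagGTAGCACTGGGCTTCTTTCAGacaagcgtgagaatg

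For alternative first exons the sequence before each start is of interest. RefSeq promoters on GRCm38.p6 could be matched at both starts for 2 of the 11 events of this type, Slc12a5 and Adk. The 250 bases before each start follow, with every CpG dinucleotide in capitals.
Slc12a5, nearer start (chr2:164967738-164967987, plus strand): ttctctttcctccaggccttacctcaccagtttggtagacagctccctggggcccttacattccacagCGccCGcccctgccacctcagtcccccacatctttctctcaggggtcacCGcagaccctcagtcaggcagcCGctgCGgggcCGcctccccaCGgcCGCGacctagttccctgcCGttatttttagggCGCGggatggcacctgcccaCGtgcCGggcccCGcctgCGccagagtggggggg
Slc12a5, farther start (chr2:164960596-164960845, plus strand): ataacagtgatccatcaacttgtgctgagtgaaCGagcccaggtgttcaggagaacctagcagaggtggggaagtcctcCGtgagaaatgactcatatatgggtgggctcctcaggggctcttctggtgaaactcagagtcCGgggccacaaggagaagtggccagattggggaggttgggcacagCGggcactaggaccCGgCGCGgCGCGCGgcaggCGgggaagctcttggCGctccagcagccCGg
Adk, nearer start (chr14:21075902-21076151, plus strand): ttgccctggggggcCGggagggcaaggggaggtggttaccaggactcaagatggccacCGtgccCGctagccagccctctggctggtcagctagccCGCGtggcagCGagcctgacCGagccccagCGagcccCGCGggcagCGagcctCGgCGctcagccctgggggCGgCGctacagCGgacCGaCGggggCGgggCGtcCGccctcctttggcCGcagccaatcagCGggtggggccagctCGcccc
Adk, farther start (chr14:21052324-21052573, plus strand): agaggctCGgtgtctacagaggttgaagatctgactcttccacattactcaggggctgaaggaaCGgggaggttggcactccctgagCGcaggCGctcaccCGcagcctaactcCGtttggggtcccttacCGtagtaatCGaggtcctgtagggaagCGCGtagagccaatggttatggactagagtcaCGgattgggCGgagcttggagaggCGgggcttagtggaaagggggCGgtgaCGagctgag

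In Adk the window before the nearer start holds 24 CpG dinucleotides at 75.2% GC, and the window before the farther start 15 at 58.8%. In Slc12a5 the nearer window holds 16 at 67.2% GC and the farther window 13 at 61.2%. The median over all 32851 promoters of the reference is 6 CpG dinucleotides and 52.4% GC. The nearer start alone could be matched in Camk2b, with 44 CpG dinucleotides at 78.4% GC, and in Cald1, with 4 at 45.6%, which is under the median. The nearer start gained use in Adk, Slc12a5 and Camk2b and lost use in Cald1. These are properties of the letters alone, and their part in the change was not tested.

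For each event the change is given as the nearer-to-farther junction ratio in the knockdown over that in the mock knockdown, computed from the pair of log2 folds in the authors' deposited table. A ratio under 1 means that the nearer junction, for a cassette exon the inclusion junction, lost use. The folds also imply the share of each junction in both groups if the 2 uses add up to the whole, and these implied shares are given in percent. The table has no values per sample and no read counts, so neither a spread between samples nor a depth can be set beside any value. In the authors' deposited table both junctions of each of the 107 events have the same p-value and folds of opposite sign, and the p-values run from 7.54e-05 to 0.0494. Every one of the 408 events with 2 junctions has a p under 0.05 there, so the listing itself selects on p. How many events were tested is not known here, and all sizes given are those of listed events.

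The nearer junction was lower in 60 of the 107 events and higher in 47. That is 56.1% lower (95% Wilson interval 46.6% to 65.1%), beside 57.1% of all 408 events with 2 junctions and 57.5% (51.8% to 62.9%) of the 301 with shorter spans. The direction thus lay at the background of the table. Among these listed events the median absolute log2 change of the ratio was 1.24 (quartiles 0.95 to 1.54), against 1.39 (1.04 to 1.80) in the shorter events. In implied share the median change was 13.1 percentage points (10.3 to 17.5), against 12.7 (8.80 to 19.5), and 17 events changed by over 20 points. Of the 107 events 20, or 18.7% (12.4% to 27.1%), have a p under 0.01 in the authors' deposited table, where the background over all events with 2 junctions is 25.7% and the shorter events give 28.2% (23.5% to 33.6%). Among these 20 events 8 were lower and 12 higher, or 40.0% lower (Wilson interval 21.9% to 61.3%). That interval includes the 56.1% of the whole set. The exons of Dclk1, Smad2 and Timm9 are counted from both sides here. The direction of the shorter events with p under 0.01 was not counted.

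**Figure D1:**
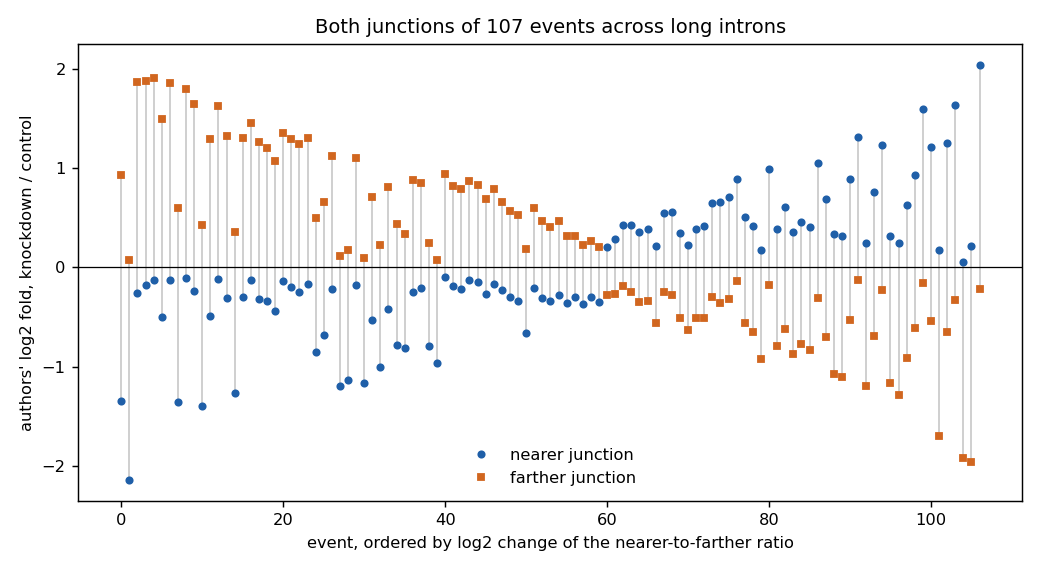
Log2 fold (knockdown over control) of the nearer junction (blue circles) and of the farther junction (orange squares) for each of the 107 events, as given in the authors' deposited table, with the events placed from left to right by the log2 change of their ratio. The 60 events on the left have a lower nearer junction and the 47 on the right a higher one, and in every event the 2 junctions lie on opposite sides of 0.

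The spans reach from 8129 nt in Tpd52 to 475477 nt in Grip1, with a median of 18775 nt. In 50 events the nearer junction alone also crosses at least 8000 nt, and in 6 the farther one crosses over 100000 nt. The genes are long, with a median of 110.6 kb per event against 36.8 kb for the shorter events. Size and direction had little relation to span within the set. The Spearman coefficient across the 107 events was 0.0602 between span and absolute log2 change and 0.147 between span and signed change. Over all 408 events these were -0.162 and 0.0584. The events just above the limit of 8000 nt are in Tpd52 (8129 nt, log2 change 1.07), Rcan3 (8168 nt, -1.50) and Nrxn2 (8190 nt, -1.01). Those just below it are in Pik3r3 (7883 nt, 1.48), H2afy (7780 nt, -1.28) and Xpa (7701 nt, 1.56).

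**Figure D2:**
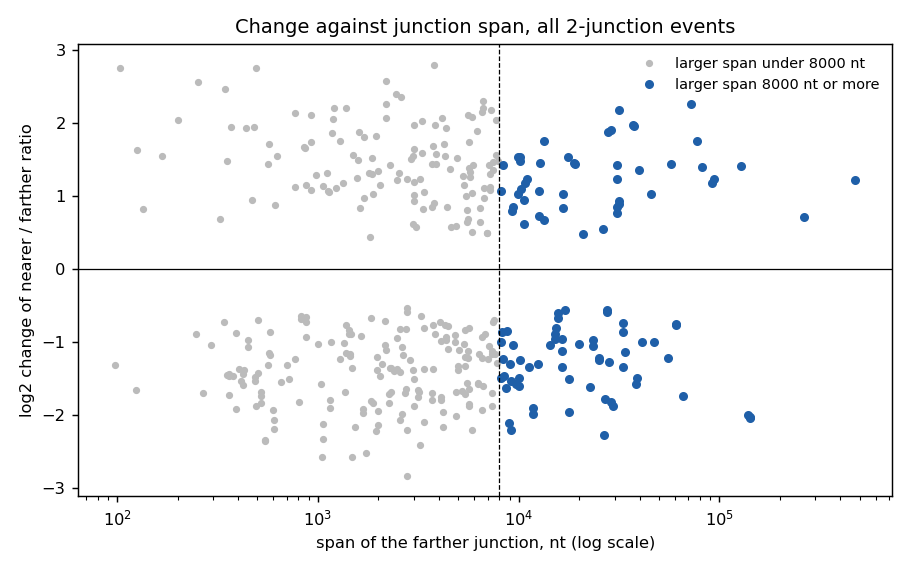
Log2 change of the nearer-to-farther junction ratio (vertical) against the span of the farther junction in nt on a log axis (horizontal) for all 408 events with 2 junctions. Blue points right of the dashed line at 8000 nt are the 107 events described here, grey points the other 301, and points of both colours lie above and below 0 along the whole range.

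The kinds of event made up different shares of the long and the shorter set. Cassette exons were the largest class in both sets, with 77 of 107 events (72.0%, Wilson interval 62.8% to 79.6%) against 200 of 301 (66.4%, 60.9% to 71.5%). Alternative first exons made up 11 events (10.3%, 5.84% to 17.5%), against 5 (1.66%, 0.712% to 3.83%) of the shorter ones. Alternative last exons made up 8 (7.48%, 3.84% to 14.1%), against 3 (0.997%, 0.340% to 2.89%). Alternative 3′ splice sites were the opposite, with 1 event here and 24 (7.97%, 5.42% to 11.6%) there, and alternative 5′ splice sites gave 2 and 21. The remainder were 2 cassettes of several exons (in Zfp532 and Pknox2, both lower), 5 events with a site outside the annotation and 1 of another kind, in 5830417I10Rik. Kinds were assigned on the gene models and not by the authors, no test was made over events, and the distance between the competing sites is part of both the span and the kind. Cassette exons were called before first and last exons, so an exon that also starts or ends other transcripts counts as a cassette exon.

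Cassette exons were skipped more often than they were included more, in the same proportion as in the rest of the table. Inclusion was lower in 48 events and higher in 29, so 62.3% (Wilson interval 51.2% to 72.3%) were lower against 62.5% of all 277 cassette exon events with 2 junctions. Of the 16 cassette exon events with a p under 0.01 in the authors' deposited table, 7 were lower and 9 higher. The 77 events concern 59 exons, of which 18 are listed from both sides. Over the 77 events, exons were 78 nt long in the median and ranged from 18 to 5217 nt. Of the 60 events with a wholly coding exon, 51 (85.0%, 73.9% to 91.9%) had a length that is a multiple of 3, against 109 of 157 (69.4%, 61.8% to 76.1%) for the shorter events. With each exon counted once the values were 38 of 46 (82.6%, 69.3% to 90.9%) and 89 of 127 (70.1%). Median GC content of the exon was 49.6% over events with lower inclusion and 49.0% over events with higher inclusion, while the shorter events gave 54.8% and 48.9%.

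**Figure D3:**
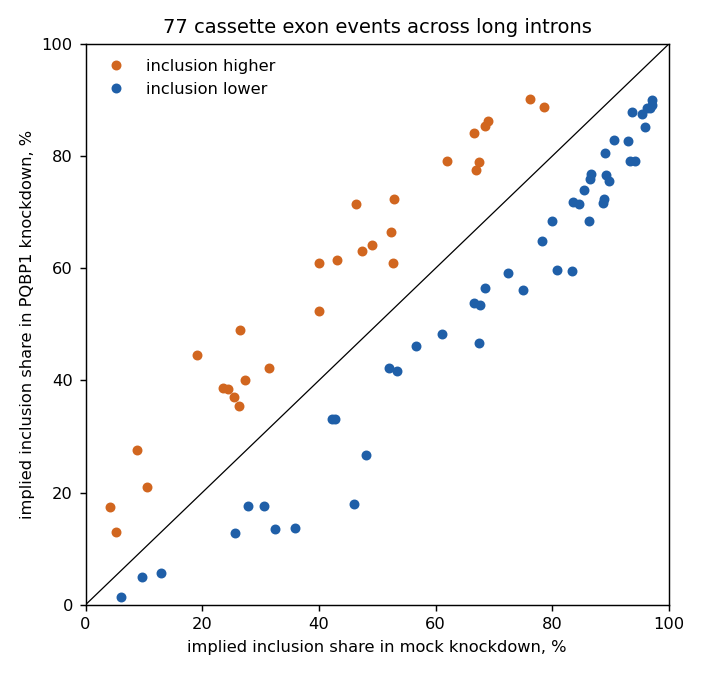
Implied inclusion of the exon in the PQBP1 knockdown (vertical, %) against that in the mock knockdown (horizontal, %) for the 77 cassette exon events, with 1 point per event and a line of equal inclusion. Blue points, below the line, are the 48 events with lower inclusion (median 80.4% in mock and 62.3% in knockdown), and orange points, above it, the 29 with higher inclusion (43.2% and 61.0%).

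The share of events with an implied inclusion over 50% in mock lay near that of all cassette exon events with 2 junctions. The counts in this paragraph are of events, so an exon listed from both sides counts for each side. For events that lost inclusion, implied inclusion had a median of 80.4% in the mock knockdown and 62.3% in the knockdown. Of these, 36 of the 48 (75%, Wilson interval 61.2% to 85.1%) were over 50% in mock, beside 136 of 173 (78.6%) over all cassette exon events with 2 junctions. Events that gained went from a median of 43.2% to 61.0%, and 11 of the 29 (37.9%) were over 50% in mock, beside 40 of 104 (38.5%). In mock the shorter events had medians of 76.0% (quartiles 52.8% to 91.7%) with lower inclusion and 35.2% (10.6% to 68.6%) with higher inclusion. The upstream intron was the longer of the pair in 29 of the 48 events with lower inclusion (60.4%, 46.3% to 73.0%) and in 13 of the 29 with higher inclusion (44.8%, 28.4% to 62.5%), with overlapping intervals. The shorter events gave 63.2% (54.5% to 71.1%) and 36.0% (26.1% to 47.3%) in the same order, with intervals that do not overlap. With each exon counted once, the upstream intron was the longer in 61.1% of 36 exons with lower inclusion and 47.8% of 23 with higher inclusion. The shorter events then gave 61.2% (51.3% to 70.3%) and 34.3% (24.1% to 46.3%).

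Among genes for axon guidance and cell adhesion, 8 of the 113 symbols on the list had 10 events, 6 higher and 4 lower. Over all 408 events the list had 10 higher and 8 lower, and the symbols of this and the following lists were chosen with results of these data known. Sema4d, a semaphorin that repels growing axons through plexin receptors, had an exon of 64 nt that is not wholly coding and whose inclusion ratio was 3.90 times that of mock, from an implied 8.87% to 27.5%. The Sema4d exon is listed here only from its downstream side, and a transcript start at this exon was not tested. Nrcam, an adhesion molecule of the L1 family at nodes and growth cones, included an exon of 156 nt more, at 2.66 times the mock ratio, across a span of 127527 nt. This Nrcam exon is not wholly coding. The exon of Ncam1 printed above is known as VASE and lies in an immunoglobulin domain of this neural adhesion molecule. Its inclusion ratio was 2.25 times that of mock, from an implied 10.5% upwards by 10.4 percentage points, and the p in the authors' deposited table is 0.00134. Both events of Dclk1, a kinase that binds microtubules in migrating neurons, were towards inclusion of the same exon of 74 nt, at 1.78 and 2.04 times the mock ratio. Cadm3, a nectin-like adhesion molecule, had a small change at 1.40 times the mock ratio.

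The adhesion genes with lower inclusion were Cadm1, Odz3 and Ptprk. Cadm1, known as SynCAM, joins cells across the synapse, and its exon of 33 nt went from an implied 93.3% to 79.2%, a ratio of 0.272 times mock. Odz3, the teneurin Tenm3, matches axons with their targets in the visual system. Its exon of 21 nt went from 88.6% to 71.6%. In Ptprk, a receptor tyrosine phosphatase that binds itself on neighbouring cells, the exon of 30 nt went from 72.5% to 59.1%. In all 3 genes the mock neurons already skipped the exon in the minority of transcripts, and that minority was larger in the knockdown.

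The synapse list had 6 genes with 8 events, 4 higher and 4 lower, beside 14 higher and 20 lower over all 408 events. Apba2, the Munc18-binding adaptor also called Mint2, had among the largest decreases: an exon of 54 nt that is not wholly coding, skipped across 141251 nt, was included at 0.242 times the mock ratio read from the upstream side and 0.245 times read from the downstream side. The implied inclusion remained high, at 95.9% in mock and 85.1% in knockdown from the upstream side. Nrxn2, a presynaptic neurexin that pairs with neuroligins, lost inclusion of its exons of 24 nt (42.2% to 33.2%) and 27 nt (86.4% to 76.0%). The list also held cassette exons that gained inclusion. Grip1, a scaffold of AMPA receptors, included an exon of 81 nt more, from 40.1% to 60.9%, over the longest span of the set. Arpp21, a neuronal phosphoprotein that binds RNA, included an exon of 99 nt more, from 26.4% to 49.1%. In the authors' deposited table the p for Grip1 is 0.0493 and that for Arpp21 is 0.0242.

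Cytoskeletal and motor genes had 9 events in 7 genes, 4 higher and 5 lower, beside 12 higher and 18 lower over all 408 events. The genes for the intermediate chains of cytoplasmic dynein, which tie the motor to its cargo, had exons of different length that changed in opposite directions. Whether these exons correspond was not tested. Dync1i2 had the largest decrease of any cassette exon in the set: its exon of 18 nt was included at 0.216 times the mock ratio, although only from an implied 6.12% to 1.39%. Its paralogue Dync1i1 included an exon of 60 nt more, at 1.71 and 1.81 times the mock ratio from the downstream and upstream sides, from 66.9% to 77.6% and from 67.4% to 78.9%. Ablim1, an actin-binding LIM protein, lost inclusion of an exon of 105 nt that nearly all mock transcripts hold, from 96.8% to 88.6% and from 97.2% to 90.1%. Mtap6, the stable tubule only protein that protects microtubules from cold, lost an exon of 197 nt, from 93.7% to 87.9%.

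Nckap1 had 3 events, more than any other gene of the set. Its product is a core subunit of the WAVE complex, which activates branching of actin. The printed exon of 18 nt was included more from both sides: the implied inclusion went from 24.5% to 38.6% at the upstream junction and from 26.3% to 35.4% at the downstream junction. In the authors' deposited table the p is 0.000932 for the first and 0.0279 for the second. The third event is in another intron, of 15327 nt or 15333 nt by the span of its junctions, in which acceptor sites 6 nt apart compete. There the nearer site, which keeps the 6 bases in capitals, went from an implied 79.6% to 69.1%. The farther site is outside the annotation.

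Ion channels and transporters had 4 events in 4 genes, 2 higher and 2 lower, beside 3 and 7 over all 408 events. Cacna1b, the pore subunit of N-type calcium channels at presynaptic terminals, lost inclusion of an exon of 97 nt, from an implied 86.2% to 68.4%. The 2 higher events, in Slc12a5 and Slc2a3, concern first exons. Mutually exclusive exons were called only where no cassette exon was possible, and an exchange of neighbouring exons can therefore appear as skipping in any of these genes.

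The chromatin list had 3 events in 2 genes, 1 higher and 2 lower, beside 4 and 13 over all 408 events. The signalling list had 2 events in 2 genes, 1 higher and 1 lower, beside 9 and 7. Kdm1a, the histone demethylase LSD1, lost inclusion of a coding exon of 60 nt, at 0.626 and 0.656 times the mock ratio from its 2 sides. Mll3, the histone methyltransferase Kmt2c, changed between acceptors 3 nt apart, and the nearer one went from an implied 20.8% to 49.5%. That nearer acceptor is outside the annotation, and a misplaced alignment was not tested. In the authors' deposited table the p of this event is 0.0485. Prkcb, a protein kinase C whose forms differ in their carboxyl ends by alternative splicing, included an exon of 216 nt less, from 89.2% to 76.6%. This Prkcb exon is not wholly coding. Of the 124 symbols listed for RNA-binding proteins and splicing factors none had an event among the 107, while 18 of them had 24 events among all 408. The long events are 107 of those 408, and events with more than 2 junctions were not counted. Ralyl and Arpp21, described here as RNA-binding, are in the set but not on that list. The marker lists for astrocytes, oligodendrocytes, microglia and endothelium, progenitors and neurons had no event among the 107 and 1 event, of a neuron marker, among all 408, so they do not bear on the long introns. The table gives no gene levels, so the makeup of the cultures was not tested.

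The other large changes in cassette exons lay outside these lists. Vcan encodes versican, a proteoglycan of the extracellular matrix, and the listed exon is the coding exon of 5217 nt that carries attachment sites for chondroitin sulfate. It was included at 0.258 times the mock ratio from the upstream side and 0.353 times from the downstream side. Cdk8, a kinase of the Mediator complex, lost inclusion of an exon of 144 nt, from an implied 94.3% to 79.1%. The skipping junction of Cdk8 is not an annotated intron. Sergef had the largest increase of all 107 events, at 4.78 times the mock ratio, for an exon of 1106 nt that is not wholly coding and that went from 4.24% to 17.5%. It is listed here only from its downstream side, and a transcript start at this exon was not tested. The lipid phosphatase genes Mtmr1 and Mtmr14, of the myotubularin family, both gained: Mtmr1 included an exon of 51 nt more, from 19.2% to 44.5%, and Mtmr14 an exon of 115 nt more, from 46.4% to 71.5%. The exon of Mtmr14 is not wholly coding. Among the remaining short exons, that of Max, the partner of Myc, went from 27.8% to 17.6%. That of Tpd52, a protein of vesicle traffic, went from 43.2% to 61.5%.

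Exons listed from both sides give 2 readings of the same change, with the skipping junction in common. All 18 such exons changed in the same direction from either side, 12 lower and 6 higher. Both sides share the skipping junction and both had to be listed, at p under 0.05, so this agreement is not separate support. The remaining cassette exons are listed from a single side among these events. The log2 changes differed by a median of 0.08 between the sides. Implied inclusion in mock differed by a median of 2.65 percentage points, and in Apba2, for example, it was 95.9% and 97.1%. Vcan was the exception, with 46.0% from the upstream side and 80.8% from the downstream side, a difference of 34.8 points, and the next largest difference was 9.28 points, in Kifap3. For Vcan the assumptions behind the implied shares therefore cannot hold on both sides. Its inclusion was lower from either side.

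**Figure D4:**
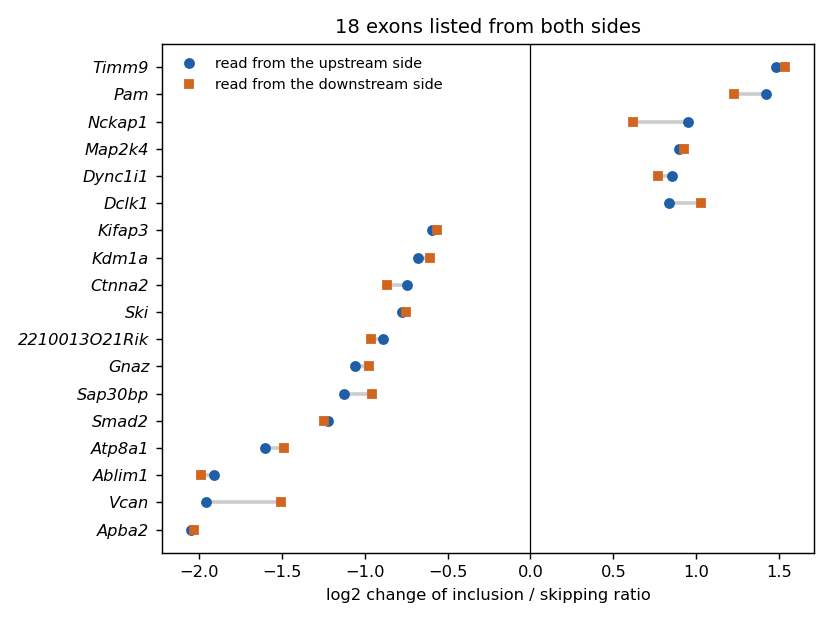
Log2 change of the inclusion-to-skipping ratio (horizontal) for the 18 cassette exons listed from both sides, 1 row per exon, read from the upstream junction (blue circles) and the downstream junction (orange squares). Both readings lie on the same side of 0 in all 18 rows, and they are farthest apart in Vcan, by 0.45.

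The exons higher from both sides were in Dclk1, Dync1i1, Map2k4, Nckap1, Pam and Timm9. Timm9, a chaperone of the mitochondrial intermembrane space, had an exon of 86 nt that is not wholly coding at 2.80 and 2.90 times the mock ratio. Pam, the enzyme that amidates neuropeptides, had a coding exon of 318 nt at 2.68 and 2.34 times. Map2k4, a kinase that activates JNK, included its exon of 33 nt at 1.86 and 1.90 times. The 12 lower ones included the exons of Smad2, which relays signals of the TGF-beta family, at 0.428 and 0.421 times the mock ratio. They also included those of Ctnna2, the neuronal alpha-catenin, at 0.598 and 0.549 times, and of Ski, a corepressor of Smad proteins, at 0.584 and 0.595 times. The skipping junction of Ski is not an annotated intron.

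In alternative first exon events, the junction from the exon that lies closer to the body of the gene mostly gained use. The nearer junction was higher in 9 of 11 events, where 42.9% of all 408 events were higher and 3 of the 5 first exon events of shorter span. All 11 are described, since they were singled out after their values were seen. Slc12a5 encodes KCC2, the neuronal transporter that lowers intracellular chloride, and its 2 starts are known to give the forms KCC2a (upstream) and KCC2b (downstream). The nearer junction went from an implied 51.8% to 69.3%. In Adk, the kinase that clears adenosine, the nearer start went from 15.2% to 31.6%. Camk2b, the beta subunit of the synaptic kinase CaMKII, had the largest change of ratio, 3.91 times that of mock, between first exons whose donor sites lie 782 nt apart. There the nearer start was already at 95.2% and went to 98.7%.

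**Figure D5:**
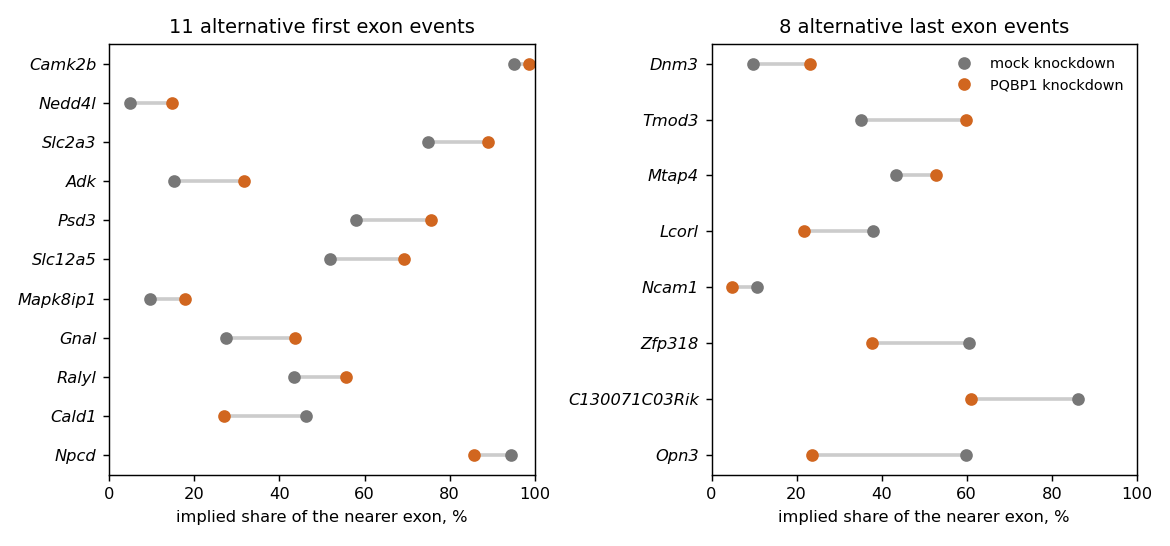
Implied share of the nearer exon (horizontal, %) in the mock knockdown (grey) and the PQBP1 knockdown (orange), 1 row per event, for the 11 alternative first exon events (left) and the 8 alternative last exon events (right), ordered by log2 change. On the left 9 rows move to the right and 2 to the left, and on the right 3 rows move to the right and 5 to the left.

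The same direction was seen in Mapk8ip1, the JNK scaffold JIP1 (9.58% to 17.8%), in Gnal, an olfactory and striatal G protein subunit (27.5% to 43.6%), and in Ralyl, an RNA-binding protein gene (43.4% to 55.6%). It was also seen in Slc2a3, the neuronal glucose transporter GLUT3 (74.9% to 89.0%), in Psd3, an exchange factor for Arf proteins (58.1% to 75.7%), and in Nedd4l, a ubiquitin ligase (4.87% to 14.7%). The 2 events with a lower nearer junction were in Cald1, the actin-binding caldesmon (46.3% in mock, at 0.430 times the mock ratio), and in Npcd (94.4% to 85.7%). At the sites of the Npcd event the gene models name Cbx6 and Nptxr as well as Npcd. In Cald1, Nedd4l, Npcd, Psd3 and Slc2a3 the farther exon is internal in the gene models, so the junction to it can also come from transcripts that start farther upstream. In the authors' deposited table the p-values of the 11 events run from 0.00825 in Gnal to 0.0353 in Slc2a3.

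Alternative last exons went both ways, with the nearer junction higher in 3 events and lower in 5. This kind was called where the nearer or the farther exon ends a transcript in the gene models, and which of them does is not given here. Tmod3, a tropomodulin that caps the pointed ends of actin filaments, had the smallest p of the whole set in the authors' deposited table, 7.54e-05, with log2 folds of 0.76 for the nearer and -0.69 for the farther junction. Its nearer junction went from an implied 35.2% to 59.7%. Dnm3, a dynamin of synaptic vesicle retrieval, went from 9.84% to 23.1%, and Mtap4, the microtubule protein Map4, from 43.4% to 52.8%. Opn3, an opsin of the brain, had the largest decrease of the set, at 0.206 times the mock ratio, and its nearer junction went from 59.9% to 23.5%. The gene models name both Chml and Opn3 at its sites.

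C130071C03Rik, a long noncoding RNA gene, used its nearer junction less, from 86.2% to 61.0%, and more often joined an exon 137948 nt away. The authors' deposited table gives this event a p of 0.000744. Lower use of the nearer junction was also listed for Zfp318 (60.6% to 37.8%), Lcorl (38.0% to 21.7%) and Ncam1 (10.7% to 4.77%). Ncam1 makes forms anchored by lipid and forms that cross the membrane, and these differ in their last exons. With its VASE exon, Ncam1 has a pair of events in the set, the cassette exon towards inclusion and the last exon event towards lower use of the nearer junction.

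A few long introns ended at sites that lie close together. Slc39a11, a zinc transporter gene, changed between donors 21 nt apart, and the nearer junction, which keeps the 21 bases printed above, went from an implied 57.7% to 76.3%. In Dcaf5, which encodes a receptor for the CUL4 ubiquitin ligase, donors 179 nt apart changed by the second largest increase of the set, 4.53 times the mock ratio, from 82.1% to 95.4%. Rcan3, a regulator of calcineurin, shifted to an acceptor 3 nt farther away, with its nearer junction at 91.9% in mock and 80.0% in knockdown. Pfdn1, a subunit of the prefoldin chaperone, did the reverse between acceptors 3 nt apart, from 84.1% to 95.1%. In Zmat5, a zinc finger gene, donors 9 nt apart changed from 27.7% to 52.6% use of the nearer one. The farther site is outside the annotation in Pfdn1 and Zmat5. Sites this close give nearly equal spans, and a misplaced alignment of a few bases at the junction was not tested, here or in Mll3 and Nckap1.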

How the data were processed

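Neurons of 5 samples (3 mock, 2 knockdown) were compared by the authors. PolyA RNA went into PrepX libraries, per the labels' protocols, and the submitters' processing notes name TopHat2 2.0.4 and mm10. How junction reads were counted and which test was run: not given in the sources used here. Per the file headers, the table that the authors deposited has for each junction a p-value, taken as unadjusted, and a log2 fold (knockdown/control). It holds no counts, so depth and its precision are unknown. An event is a junction identifier without its last number, gene names were filled down, and 98 of 107 symbols equal the GENCODE M21 symbol. Adding 1 to start and end gives the intron, and a span is end minus start. Both junctions of 92 events equal annotated introns. Kinds of event were reconstructed on GENCODE M21, calling cassette exons first and taking the shortest exon where several were possible. The change is the log2 fold of the nearer minus that of the farther junction. Implied shares assume that the folds are of relative use within the event, which the headers do not say, and that both uses add up to the whole. Wilson 95% intervals cover counting of events, which are not replicates. Python 3.11.15 with pandas 2.3.3 was used, and the typing was tested on simulated data. The members and gene lists were chosen with earlier results of these data known. Named events are the 8 largest changes each way, the 6 with the smallest p, the largest span and the largest share change, list members, exons of at most 27 nt, genes with 3 or more events and exons listed from both sides. First and last exons, close sites and cassettes of several exons were named after their values were seen. A few values and sequences that fall under the naming rule are not reported here. The 8 alternatives changed the span limit, the p limit, the size limit and how events are counted.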

Additional observations from a re-analysis of the deposited data

How the results depend on the processing

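Under 7 of 8 alternatives the share of events with a lower nearer junction stayed between 52.0% and 56.6%, and that of cassette exons with lower inclusion between 58.0% and 65.9%. With events of p under 0.01 alone, 40.0% of 20 events (Wilson interval 21.9% to 61.3%) and 43.8% of 16 cassette exon events (23.1% to 66.8%) were lower. These intervals include the shares of the whole set, 56.1% and 62.3%, so a turn of direction is not shown. The cause of the lower shares was not tested. The median change in implied share was 16.4 points at p under 0.01 and 15.1 points with an absolute log2 change of at least 1, against 12.2 to 13.4 under the other 6. The median absolute log2 change was 1.44 with that size limit, which removes the smaller changes by construction, and 1.23 to 1.32 otherwise. The share of cassette events, single and several exons together, ran from 67.1% to 80.0%. Exon GC content ran from 46.7% to 51.1% for lower and from 45.9% to 50.4% for higher inclusion. No paired analysis was possible because the deposited table holds no values per sample. For the same reason no replicate could be left out.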
